A study of Mus musculus with 66 samples.

Results

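The proteins of the cytosolic ribosome were followed in the cerebellum of male and female C57BL/6 mice over 5 age classes and 2 diets. Members were taken by symbol: a probe counted when its annotation gave a single gene symbol starting with Rpl (large subunit) or Rps (small subunit), the ribosomal S6 kinases being left out. This gave 54 genes on 97 probes, out of 4209 single-symbol genes and 8448 probes on the filter, with 35 large subunit genes (59 probes) and 19 small subunit genes (38 probes). Probes of a gene were averaged and no filter on signal was used.

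Each of 66 mice had its own nylon filter of cDNA clones, hybridized with radiolabelled cerebellar cDNA. Caloric restriction (CR) mice, whose feeding was cut in early adulthood, were killed at about 6, 16 or 24 months, as were mice fed ad libitum (AL), and AL mice were also taken at 17 to 21 days and at 33 to 44 days. Arrays used per age class were 5 at 17 to 21 days, 5 at 33 to 44 days, and, CR before AL, 9 and 10 at 6 months, 8 and 10 at 16 months and 7 and 9 at 24 months. The CR males of the oldest class were all 673 days old whereas the AL males were 719 to 743 days old, so in males of that class diet and age cannot be told apart.

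The ribosome is built from a large subunit, which forms peptide bonds, and a small subunit, which reads the mRNA. Its proteins are made in matched amounts in every cell, and their mRNAs are among the most abundant of most tissues. In mammals these mRNAs begin with a run of pyrimidines, the terminal oligopyrimidine (TOP) tract, through which growth signalling by mTORC1 sets how well they are translated. In the cerebellum the precursors of granule neurons divide, and granule neurons migrate, in the first weeks after birth. Growth and synapse formation there go with high protein synthesis.

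Values were Z scores, computed by the authors for each array so that 0 is the mean of all probes on it and 1 is their SD. A difference is therefore in SD units of the array, cannot be turned into a fold, and cannot show a shift shared by all probes. Of the 66 arrays, 3 (CR mice of 16 and 24 months) had median correlations with the rest of 0.82 or less and were left out of the main fit, while the 63 used lay at 0.92 or more. The linear model was fitted with limma over 7782 features, with p-values adjusted over all of them, and a feature was called at an adjusted p under 0.05. Of the cerebellar markers listed, 2 Purkinje cell genes were measured, Car8 at a mean Z score of 0.841 and Calb1 at -0.015, and 0 of the listed granule cell markers.

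Ribosomal protein genes did not stand at the top of these filters. Over the arrays used 26 of the 54 (48.1%) had a mean Z score above 0, against 48.7% of all features, and the median was -0.037, against -0.028 over all features. Their range was narrower than that of all features: the members' quartiles were -0.335 and 0.414, and those of all features -0.629 and 0.681. The top decile of features held 2 members, Rpl8, a component of the peptidyl transferase region (1.70 ± 0.11, SD within groups), and Rpl39, which lines the exit tunnel (1.36 ± 0.242). Since each probe binds its target with its own strength, these levels place a probe against the array and not a gene against another gene. A gene name stands here for the clone as annotated, and all 54 symbols matched the gene ID of a reference table.

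Among large subunit genes the highest 3 were Rpl8, Rpl39 and Rpl31, which also sits near the tunnel (1.09 ± 0.166). The lowest 3 were Rplp0, the base of the stalk that recruits translation factors (-0.735 ± 0.203), Rpl5, which carries the 5S rRNA into the subunit together with Rpl11 (-0.586 ± 0.164), and Rpl35a (-0.522 ± 0.112). In the small subunit Rps26 (0.805 ± 0.125), Rps21 (0.730 ± 0.102) and Rps15 (0.679 ± 0.142) had the highest means. Rps19 (-0.593 ± 0.249), Rps14 (-0.615 ± 0.178) and Rps9 (-1.06 ± 0.185) had the lowest means of that subunit. The paralogs Rpl7l1, which acts in ribosome assembly, and Rpl22l1 stood at 1.06 ± 0.135 and -0.501 ± 0.12.

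**Figure D1:**
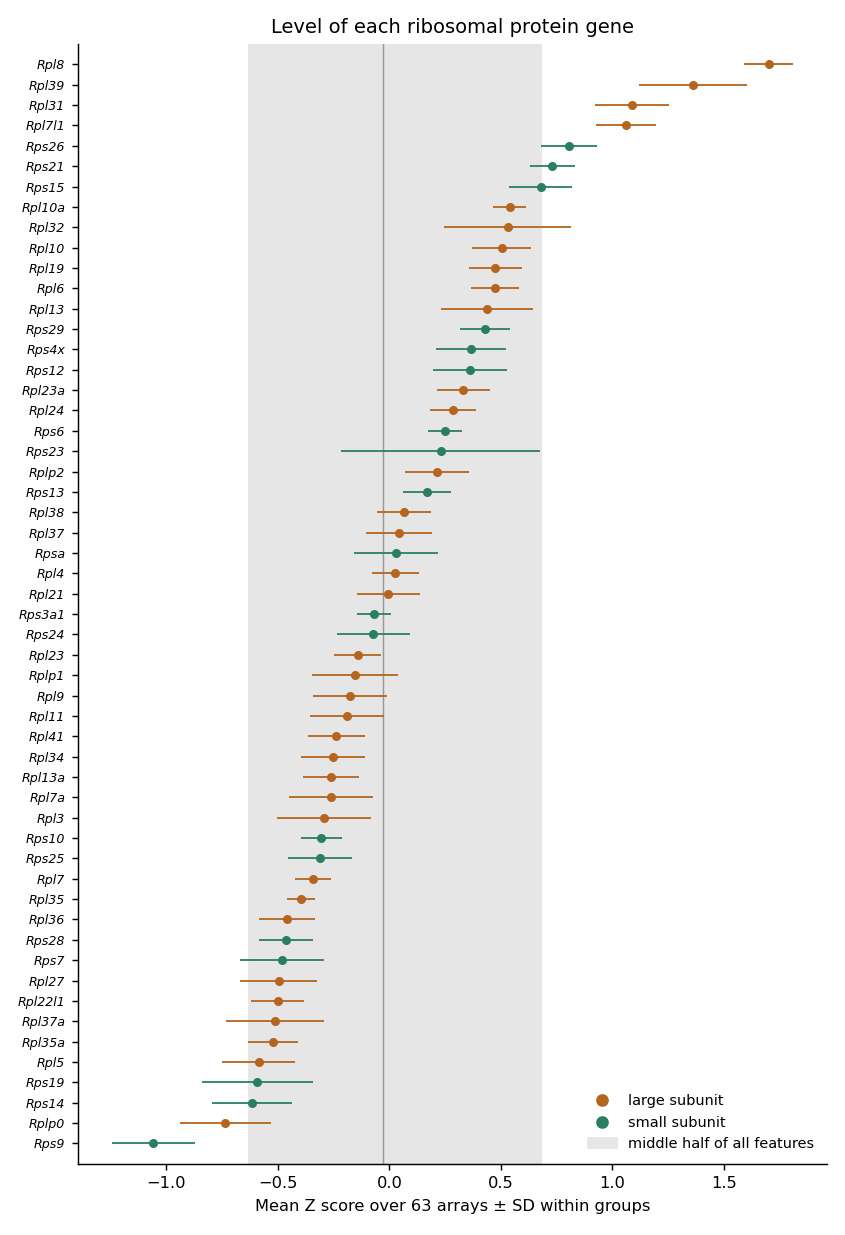
Mean Z score of each of the 54 ribosomal protein genes over 63 arrays (points, horizontal axis in Z units) with the SD between arrays within groups (bars), large subunit in brown and small subunit in green. The grey band spans the quartiles of all 7782 features, -0.629 to 0.681, and most members lie inside it, with Rpl8 at 1.70 and Rps9 at -1.06 as the extremes.

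Between mice of a group the members' SD was lower in the median than that of all features. The SD within groups was smallest for Rpl35 (0.0635), Rpl10a (0.0737) and Rps6, the substrate of the S6 kinases (0.0755), and largest for Rps23 (0.445), Rpl32 (0.283) and Rps19 (0.249), with a median of 0.141 over the members and 0.167 over all features. In the 6 adult classes of diet and age the members' median SD was 0.123 to 0.141, and that of all features 0.132 to 0.174. At 6, 16 and 24 months the ratio of the 2 was 0.949, 0.719 and 0.996 in CR mice. In AL mice it was 0.81, 0.843 and 0.876. Averaging probes can lower an SD. Members had 97 probes for 54 genes, against 8448 for all 7782 features. Rpl35, Rpl10a and Rps6 have 3, 2 and 4 probes, and Rps23, Rpl32 and Rps19 a single probe each. The part of averaging in these SDs was not tested.

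Probes of the same gene did not give the same level. For the 24 genes with several probes (67 probes) the means of a gene's probes were apart by 0.0275 to 1.505, with a median of 0.572. The widest gaps belonged to Rpl31 (0.104 to 1.61), Rpl10, which joins the large subunit late in its assembly (-0.170 to 1.16), and Rps15 (0.103 to 1.41). All probes lay above the array mean for 7 of these genes, all below it for 9, and on both sides for 8. Across the 63 arrays the probes of a gene followed each other with a median correlation of 0.406 over genes, which holds whatever the arrays share and is given as a description. Rpl35a, Rpl36, Rpl11 and Rps9, named below, each rest on a single probe, so no other probe can be set beside them.

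The comparison of young mice asked how the members differed between weaning and adolescence. No array set (a run of array numbers, given below) held both ages in the same sex. At 33 to 44 days against 17 to 21 days, 0 of the 54 genes were called, beside 24 of 7782 features (0.308%). At an unadjusted p under 0.05, 5 members were higher and 2 lower, 7 in all, against 13.4% of all features. The median difference was 0.046 for the large subunit (23 of 35 genes higher) and 0.026 for the small subunit (11 of 19 higher), against -0.009 over all features. At 6 months against 17 to 21 days 0 members and 0.411% of features were called, 4 members were higher at an unadjusted p under 0.05 and 0 lower (10.7% of features), and the medians were 0.067 (26 of 35 higher) and 0.033 (12 of 19 higher), against -0.006 over all features.

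The smallest p in the first of these comparisons was that of Rpl35a, a large subunit protein whose human gene is mutated in some families with Diamond-Blackfan anaemia. It read -0.39, -0.42, -0.47, -0.47 and -0.49 in the mice of 33 to 44 days, against -0.53, -0.60, -0.81, -0.81 and -0.82 in those of 17 to 21 days. All of the older mice thus lay above all of the younger mice, and 3 of the 5 younger mice lay near -0.8. The difference was 0.266 (SE 0.0754, 95% interval 0.114 to 0.417) with an adjusted p of 0.117 from limma. At 6 months the lowest, median and highest of 10 AL mice were -0.67, -0.485 and -0.29, which is 0.211 (SE 0.0649, adjusted p = 0.167, limma) above 17 to 21 days.

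Rpl36, another large subunit protein, read -0.32, -0.40, -0.42, -0.52 and -0.57 at 33 to 44 days, against -0.50, -0.63, -0.64, -0.69 and -0.74 at 17 to 21 days. In this gene 2 of the older mice lay below the highest of the younger ones, and the difference was 0.219 (SE 0.0835, adjusted p = 0.254, limma). It was 0.161 (SE 0.0718, adjusted p = 0.45) at 6 months. Rpl41, the smallest of the ribosomal proteins, read -0.06, -0.09, -0.125, -0.22 and -0.43 at 33 to 44 days, against -0.315, -0.335, -0.345, -0.46 and -0.465 at 17 to 21 days. A single older mouse lay among the younger ones, and the difference was 0.217 (SE 0.0842, adjusted p = 0.268). Rps9, which lies at the mRNA entry side of the small subunit, had the largest difference of any member, 0.268 (SE 0.118, adjusted p = 0.318), with -1.35 to -0.75 at 33 to 44 days and -1.61 to -1.06 at 17 to 21 days.

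Rpl11, which besides its place near the 5S rRNA binds the p53 regulator Mdm2, had the largest difference of any member between 6 months and 17 to 21 days, 0.299 (SE 0.0912, adjusted p = 0.167, limma). Its 10 AL mice of 6 months ran from -0.34 through a median of -0.175 to 0.18, against -0.22, -0.31, -0.33, -0.37 and -0.91 at 17 to 21 days. The value of -0.91 belonged to the 19-day male, whose array had the lowest median correlation of those used (0.921). The members lower at 33 to 44 days at an unadjusted p under 0.05 were the paralog Rpl22l1 (-0.163, SE 0.0802) and the X-linked Rps4x (-0.214, SE 0.102).

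The calls in these comparisons turned on the 2 young males. Without the 19-day male 0 members were called in either comparison, with 0.0129% of features called in each, and 3 and 0 members were at an unadjusted p under 0.05. The Rpl35a difference was then 0.196 (SE 0.084, adjusted p = 0.78) and that of Rpl11 at 6 months 0.126 (SE 0.0994, adjusted p = 0.87). Without the 17-day male, 3 members were called in each comparison, all higher in the older mice, beside 8.07% of features at 33 to 44 days and 7.35% at 6 months. In that fit the 19-day male stands alone for its sex, counts as much as the 3 females together, and is assumed to vary like the mice of the other groups. The members called were Rpl35a (0.336, SE 0.084, adjusted p = 0.00509), Rpl11 (0.392, SE 0.111, adjusted p = 0.0169) and Rpl23a (0.244, SE 0.0773, adjusted p = 0.0373) at 33 to 44 days, and the same genes at 6 months (0.281, 0.471 and 0.239). The number of members at an unadjusted p under 0.05 at 33 to 44 days moved with other mice too. It was 15 without the 44-day male (21.3% of features), 11 without the 17-day male (20.8%), 4 without the 33-day or the 40-day female (14.1% and 7.75%), and 3 without the 40-day male (7.22%) or the 19-day female (11.7%). At 6 months it was 11 without the 17-day male (17.5%), 8 without the 193-day female (14.9%), 7 without the 193-day male (10%) and 2 without the 21-day female (7.27%).

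Rpl23a, which helps to dock the signal recognition particle at the tunnel exit, lay at both extremes in these males. In the young males it read -0.045 at 19 days and 0.62 at 17 days, the lowest and the highest value of all arrays used, against 0.175 to 0.31 in the 3 females of that age. With both males in the fit its difference was 0.078 (SE 0.0795, adjusted p = 0.649) at 33 to 44 days. Its 2 probes also differed in level, with means of 0.715 and -0.051.

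**Figure D2:**
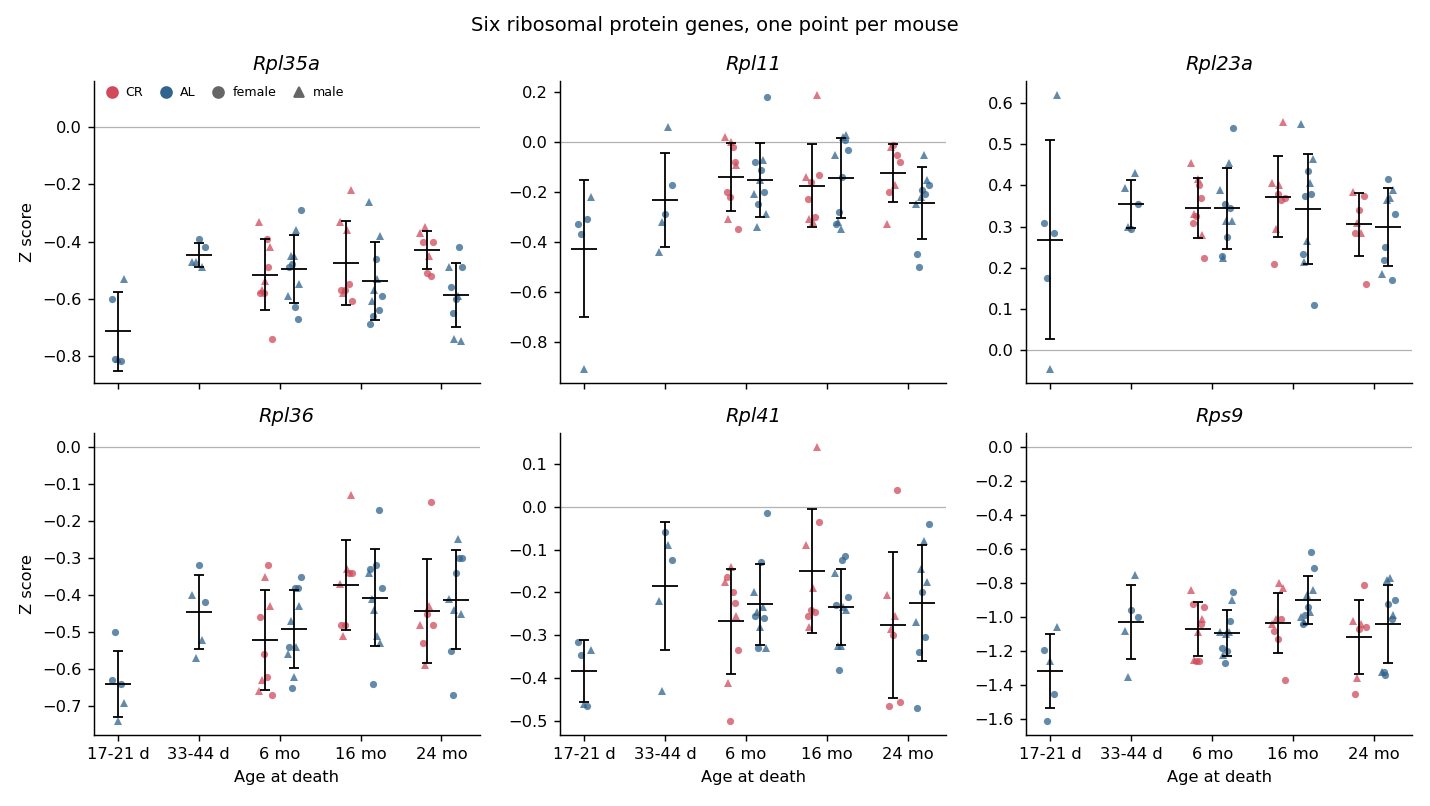
Z score (vertical axis) of Rpl35a, Rpl11, Rpl23a, Rpl36, Rpl41 and Rps9 in each mouse by age class (horizontal axis), CR in red left of AL in blue, females as circles and males as triangles, with the mean and SD of each class as bars. For Rpl35a the youngest class has the lowest mean (-0.714), with adult mice of several classes inside its range of -0.82 to -0.53. A single 19-day male lies at -0.91 for Rpl11 and at -0.045 for Rpl23a.

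The DNA around the starts of these genes is shown because the TOP tract is the feature that the family shares and the rule did not use. In RefSeq start windows of build GRCm38.p6, 44 of the 54 genes were found. An unbroken run of at least 8 pyrimidines (C or T, on the transcribed strand, from 50 bases before to 50 bases after an annotated start) was present for 35 of the 44 genes (79.5%), against 39.3% of all 27025 genes in the table. It was present for 23 of 27 large subunit genes (85.2%) and 12 of 17 small subunit genes (70.6%). The letters CCGGAAG, the core bound by ETS factors such as GABP, stood on either strand of the 300-base window in 19 of the 44 genes (43.2%), against 9.93% of all genes. For 7 genes that the comparisons name by their smallest p-values, windows of 30 bases are given around the longest pyrimidine run, in capitals, or around the start where no such run was found.
Rpl35a, chr16:33056468-33056497, plus strand: cggggcttgCCTTCCTCTTTCCgccatctt
Rpl11, chr4:136053358-136053387, minus strand: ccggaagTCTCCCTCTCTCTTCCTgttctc
Rpl41, chr10:128549119-128549148, minus strand: cgccattaaatagcagtaggCCTCCCTCTC
Rps9, chr7:3704024-3704053, plus strand: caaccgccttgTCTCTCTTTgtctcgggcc
Rpl10, chrX:74270836-74270865, plus strand: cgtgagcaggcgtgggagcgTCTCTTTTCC
Rps3a1, chr3:86142654-86142683, minus strand: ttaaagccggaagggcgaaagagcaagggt
Rpl7l1, chr17:46782642-46782671, minus strand: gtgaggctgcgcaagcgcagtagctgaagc
The runs were 13 bases long in Rpl35a, 17 in Rpl11, 10 in Rpl41 and Rpl10 and 9 in Rps9. They do not all lie at the annotated start. The windows of Rpl41 and Rpl10 cover bases 21 to 50 after it. There the runs end at the edge of the stretch searched, so they may go on beyond it. The window of Rpl11 covers bases 7 to 36 after the start. Rpl35a has 3 annotated starts, and its window covers bases 16 to 45, -14 to 16 and -46 to -17 relative to them. Of the 2 windows without one, Rps3a1 holds CCGGAAG at its start, and Rpl7l1, the paralog that is not part of the mature ribosome, holds neither motif. A match here says only that the letters are present, and transcript starts were not measured.

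Over adult life the question was whether the members differed with age on either diet. In AL mice 0 members were called at 16 against 6 months, at 24 against 16 months or at 24 against 6 months (0% of features called in each), and in CR mice 0 were called in the same comparisons (0% of features in each). At an unadjusted p under 0.05 the AL comparisons held 1 member of 54 (1.34% of features), 1 (3.92%) and 0 (2.49%), and the CR comparisons 1 (2.13%), 1 (2.51%) and 0 (1.12%). The 95% interval of a single member reached 0.13 to 0.15 Z units to either side (median over members), and less for the least variable of them.

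On both diets the mean of the members was highest at 16 months. The large subunit mean of an array averaged 0.072 ± 0.0544, 0.105 ± 0.0502 and 0.060 ± 0.0605 at 6, 16 and 24 months in CR mice (SD, n = 9, 8 and 7). In AL mice it averaged 0.021 ± 0.0482 at 17 to 21 days, 0.067 ± 0.0316 at 33 to 44 days, and 0.079 ± 0.057, 0.102 ± 0.0513 and 0.061 ± 0.0648 at the adult ages (n = 5, 5, 10, 10 and 9). The small subunit followed, with 0.002 ± 0.0628, 0.034 ± 0.0664 and -0.023 ± 0.0653 in CR mice. In AL mice its means were -0.035 ± 0.0669, -0.012 ± 0.0518, 0.012 ± 0.0558, 0.031 ± 0.0638 and -0.008 ± 0.0751. Each step between neighbouring ages was smaller than the SD between mice of a class, except the large subunit step between 17 to 21 and 33 to 44 days, which lay between the SDs of those classes, and the classes overlapped throughout. Of 11 markers of microglia and blood 4 were measured, C1qa, C1qb, Hba-a1 and Alas2, and their median difference was 0.085 in CR and 0.063 in AL mice at 16 against 6 months (4 of 4 higher on each diet). At 24 against 16 months it was -0.124 in CR (3 of 4 lower) and -0.086 in AL mice (4 of 4 lower). The mean level of the 4 markers lay at -0.684 to -0.424, -0.604 to -0.315 and -0.717 to -0.455 at 6, 16 and 24 months in CR mice, and at -0.733 to -0.358, -0.665 to -0.302 and -0.743 to -0.404 in AL mice. The smallest p among them was that of Alas2, an enzyme of haem synthesis in red cell precursors, at 16 against 6 months in AL mice (0.228, SE 0.0799, adjusted p = 1, limma). At 24 against 16 months the 2 Purkinje markers were lower on each diet (medians -0.058 in CR and -0.046 in AL mice). Those of choroid, meninges and vessels were lower for 3 of 3 in AL and 2 of 3 in CR mice. Of 4 proliferation genes 4 were lower in CR and 1 in AL mice. The single markers of glia and of neighbouring brain each differed in sign between the diets. At 16 against 6 months 2 Purkinje markers were higher in CR mice and 1 in AL mice. The part of any of these genes in the members' values was not tested.

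**Figure D3:**
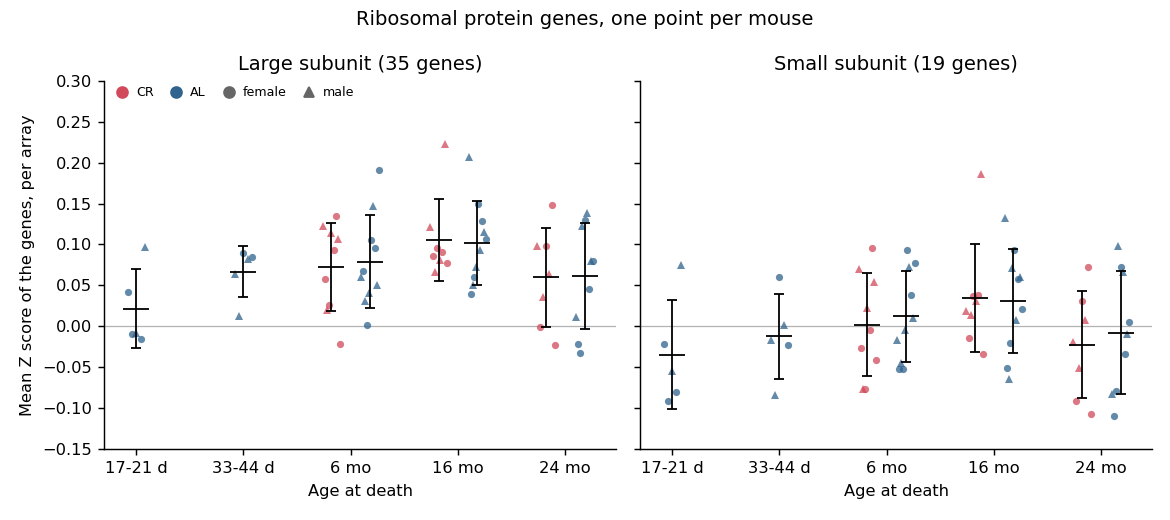
Mean Z score of the 35 large subunit genes (left) and the 19 small subunit genes (right) in each of 63 mice by age class, CR in red left of AL in blue, circles females and triangles males, bars the mean and SD of a class. The means peak at 16 months on both diets (large subunit 0.105 in CR and 0.102 in AL) while single mice of every adult class range over more than the difference between classes.

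Counted gene by gene, 42 of 54 members were lower at 24 than at 16 months in CR mice and 39 in AL mice. The 2 diets share no arrays, and 31 members (57.4%), 19 of the large and 12 of the small subunit, were lower on both, which is 73.8% of those lower in CR and 79.5% of those lower in AL. The product of the shares lower on each diet is 56.2% of the 54, so the overlap hardly exceeds what the separate counts give. Of all features 26.8% were lower on both, with a product of 24.7%. Likewise 25 members (46.3%) were higher at 16 than at 6 months on both diets (product 43%), against 26% of all features (24.3%). The median differences at 24 against 16 months were -0.036 (large) and -0.042 (small) in CR mice, with 0.004 over all features, and -0.031 and -0.013 in AL mice, with -0.002 over all features. Since members measured on the same arrays are correlated, though weakly in the median, these counts are a description and no test of the group was made.

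The array numbers of the labels cycle through the groups in 5 runs, here called array sets, and no set repeats a combination of sex, age class and diet. Whether a set was hybridized together is not stated. Within them the same step was not uniform. For 24 against 16 months in CR mice the large subunit mean was lower in 2 of the 4 sets that could be compared (-0.100 to 0.021), and the small subunit mean in 3 of 4 (-0.074 to 0.006). In AL mice both were lower in 4 of 5 sets (-0.128 to 0.015 and -0.137 to 0.003). For 16 against 6 months the large subunit mean was higher in 2 of 4 sets in CR mice and in 3 of 5 in AL mice.

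The members nearest to passing at 24 against 16 months in CR mice were Rps3a1, a small subunit protein near the mRNA exit (-0.126, SE 0.0463), Rpl37a (-0.203, SE 0.111) and Rpl41 (-0.122, SE 0.0679), each with an adjusted p of 0.999 (limma). Rps3a1 had a lowest, median and highest value of -0.303, -0.147 and 0.05 in 7 CR mice of 24 months, against -0.15, 0.018 and 0.157 in 8 of 16 months. The classes overlapped. In AL mice they were Rpl10 (-0.133, SE 0.0623), Rpl3, a protein of the peptidyl transferase centre (-0.167, SE 0.0947), and Rps12 (-0.123, SE 0.0757), each with an adjusted p of 1. Rpl10 had values of 0.335, 0.395 and 0.59 (lowest, median, highest) in 9 AL mice of 24 months, against 0.415, 0.53 and 0.783 in 10 of 16 months.

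For 16 against 6 months the smallest p-values were those of Rpl36 (0.149, SE 0.063), Rps14 (0.163, SE 0.0857) and Rpl41 (0.116, SE 0.0636) in CR mice, and of Rps9 (0.191, SE 0.0814), Rpl35 (0.060, SE 0.0349) and Rpl24 (0.077, SE 0.0492) in AL mice, all higher at 16 months and all with an adjusted p of 1. Rps9 had values of -1.04, -0.955 and -0.62 in 10 AL mice of 16 months, against -1.27, -1.095 and -0.85 in 10 of 6 months. The lowest, the median and the highest value were all higher at 16 months, and the classes overlapped between -1.04 and -0.85. Between 24 and 6 months they were Rps7 (-0.153, SE 0.0941), Rps3a1 (-0.072, SE 0.0453) and Rpl10 (-0.103, SE 0.0687) in CR mice and Rpl10 (-0.122, SE 0.0623), Rpl9 (-0.142, SE 0.0753) and Rpl35a (-0.097, SE 0.0538) in AL mice, all lower at 24 months with an adjusted p of 1.

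**Figure D4:**
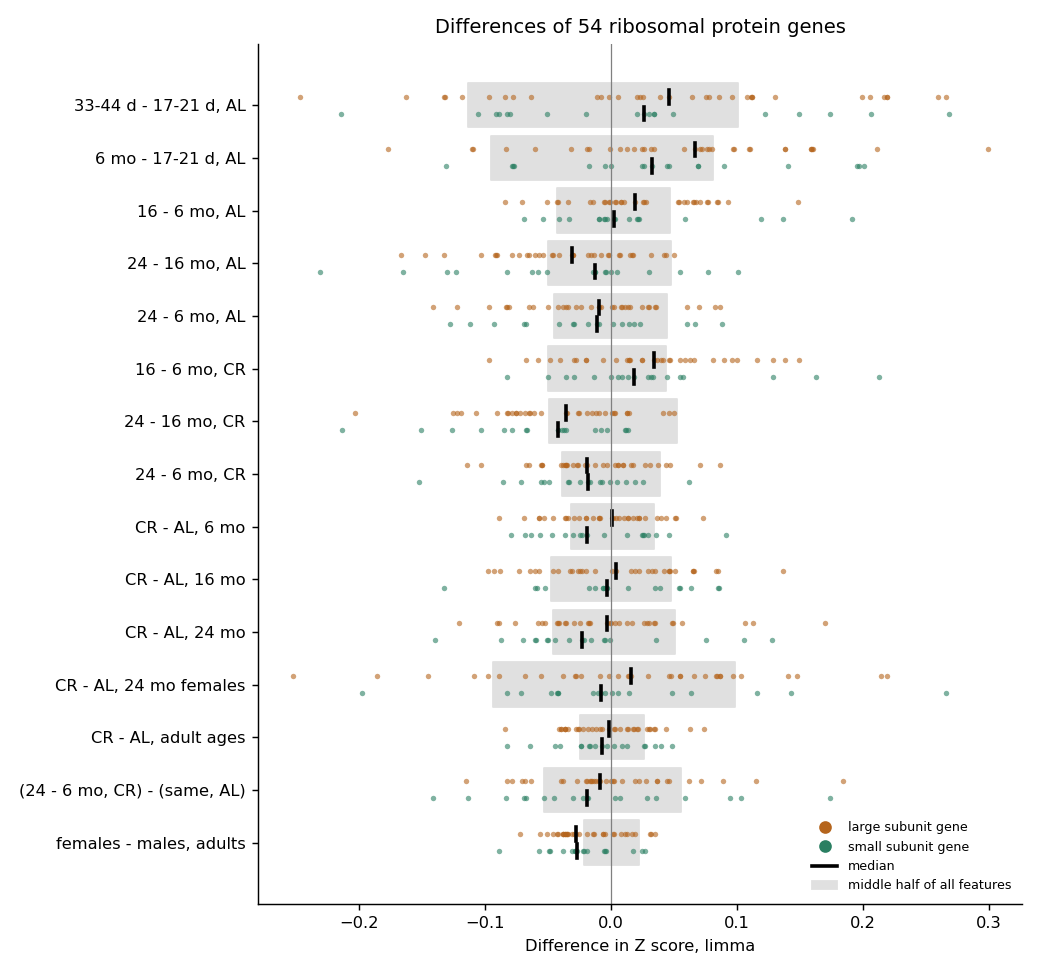
Difference in Z score (horizontal axis, limma) of each of the 54 ribosomal protein genes in 15 comparisons, large subunit in brown above small subunit in green, with the median of each subunit as a black bar and the quartiles of all features as a grey box. The black bars lie left of 0 at 24 against 16 months on both diets (-0.036 and -0.042 in CR, -0.031 and -0.013 in AL) and in females against males (-0.028 and -0.027), inside the box or just beyond it.

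Diet was compared at each age. Between CR and AL mice 0 members were called at 6, 16 or 24 months, in females of 24 months alone, or over the adult ages together, with 0% of features called in each. Unadjusted p-values under 0.05 were found for 0 members at 6 months (0.655% of features), 0 at 16 months (2.13%), 1 at 24 months (2.25%), 2 in females of 24 months (5.37%) and 1 over the adult ages (1.64%). The medians of the large and the small subunit were 0.0004 and -0.019 at 6 months, 0.004 and -0.003 at 16 months and -0.003 and -0.023 at 24 months, against medians within 0.005 of 0 over all features. The difference between the diets in the change between 6 and 24 months gave 0 called members (0% of features) and 1 at an unadjusted p under 0.05 (0.9%).

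Rpl35a was the member at an unadjusted p under 0.05 at 24 months, over the adult ages and in the diet by age comparison. At 24 months it had values of -0.52, -0.40 and -0.35 (lowest, median, highest) in 7 CR mice, against -0.75, -0.59 and -0.42 in 9 AL mice. The upper AL values thus fell within the CR range. The difference was 0.170 (SE 0.0594, 95% interval 0.0504 to 0.289, adjusted p = 0.999, limma). It was 0.065 (SE 0.0554) at 16 months and -0.015 (SE 0.0538) at 6 months. The change between 6 and 24 months was 0.087 (SE 0.0594) in CR mice and -0.097 (SE 0.0538) in AL mice, which differ by 0.184 (SE 0.0802, adjusted p = 1). In females of 24 months alone, where the ages match, the diet difference was 0.087 (SE 0.0784, adjusted p = 0.752).

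In females of 24 months the smallest p-values belonged to Rpl7l1 (-0.253, SE 0.092), Rpl34 (0.215, SE 0.0974) and Rpl11 (0.219, SE 0.11), each with an adjusted p of 0.739 (limma). Rpl7l1 read 0.86, 0.89, 1.00 and 1.16 in CR females, against 1.09, 1.19, 1.21, 1.31 and 1.35 in AL females. A single CR female lay within the AL range. Rpl34 lay between -0.25 and -0.04 in CR females, against -0.43 to -0.31 in AL females. Elsewhere the 3 smallest p-values were those of Rpl23, Rpl35 and Rpl9 at 6 months (0.073, 0.043 and -0.089), Rpl6, Rps9 and Rpl10 at 16 months (-0.093, -0.133 and -0.098), Rps24 and Rps12 after Rpl35a at 24 months (-0.14 and 0.127), and Rps24 and Rpl27 after Rpl35a over the adult ages (-0.083 and -0.084). After Rpl35a the diet by age comparison had Rpl23 (-0.115, SE 0.0772) and Rps7 (-0.141, SE 0.127). All of these had an adjusted p of 0.999 or 1 (limma).

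Most members had a slightly lower mean in females than in males. Over the adult mice 41 of 54 members had a lower mean in females, 25 of 35 in the large and 16 of 19 in the small subunit, with medians of -0.028 and -0.027, against 0.0002 over all features. The mean of each subunit was lower in females in 5 of the 6 classes of age and diet, AL mice of 6 months being the exception. As with the ages, members of the same arrays are correlated, so these counts are a description and were not tested. 0 members and 0% of features were called, and 1 member was at an unadjusted p under 0.05 (1.29% of features). It was Rpl35a (-0.072, SE 0.0325), followed by Rps6 (-0.049, SE 0.0242) and Rps24 (-0.089, SE 0.0455), each with an adjusted p of 1 (limma).

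The level of the members differed between array sets. The large subunit mean was 0.068, 0.019, 0.082, 0.104 and 0.087 in the sets 1 to 5, and the small subunit mean -0.020, -0.064, 0.030, 0.046 and 0.012, lowest in set 2 for both. The set took up a median of 26.5% of the sum of squares within groups over the members, against 24.1% over all features. It was widest for Rps23, with means of -0.131, -0.158, 0.532, 0.481 and 0.358, and for Rpl32 (0.342, 0.220, 0.731, 0.676 and 0.619), and its share was highest for Rpl22l1 (64%). With the set as a block 0 members were called in any comparison.

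Members followed one another weakly across mice. Within groups, over the 63 arrays, the median correlation of 2 large subunit genes was 0.153, of 2 small subunit genes 0.12 and of genes from different subunits 0.157, against -0.008 for all pairs of features. The closest pairs were Rpl31 with Rpl39 (0.959), Rpl32 with Rps23 (0.939), Rpl10 with Rps4x (0.884), Rplp0 with Rps14 (0.866) and the stalk gene Rplp2 with Rps4x (0.86). The genes of a pair were measured on the same arrays. Rps23 and Rpl32 both differed in mean between array sets, as given above. On the filter 3 probes of Rpl10 and 2 of Rps4x alternate at the same position of neighbouring runs. The part of sets or positions in these correlations was not tested.

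Of the 3 arrays left out, those of the 16-month CR mice read low at a position of the filter where ribosomal probes were frequent. Probe numbers fall into runs of 22 on the filter, and 15 of the 97 ribosomal probes (15.5%), from 11 genes, sat at position 8 of a run, against 4.55% of all probes. On the 2 arrays of 16-month CR mice that were left out, these 15 probes averaged -2.91 in the male and -2.74 in the female, while the other ribosomal probes averaged 0.289 and 0.236. On the third array, of a 24-month CR female, the 15 probes averaged -0.127, against 0.110 on the arrays used. With all 66 arrays the members at an unadjusted p under 0.05 numbered 14 for CR against AL at 16 months (8.64% of features), 11 of them with a probe at position 8. They numbered 9 at 16 against 6 months in CR mice (8.74%), 6 at 24 against 16 months in CR mice (9.82%) and 5 for CR against AL females of 24 months, where they made up a smaller share than that of all features (24.9%), and 0 were called in each. Rpl10, with 3 of its 4 probes at that position, differed between CR and AL at 16 months by -0.620 (SE 0.21, adjusted p = 0.4) with all arrays and by -0.098 (SE 0.0641, adjusted p = 1) with the 63. Rpl36 at 16 against 6 months in CR mice was -0.306 with all arrays and 0.149 with the 63.

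**Figure D5:**
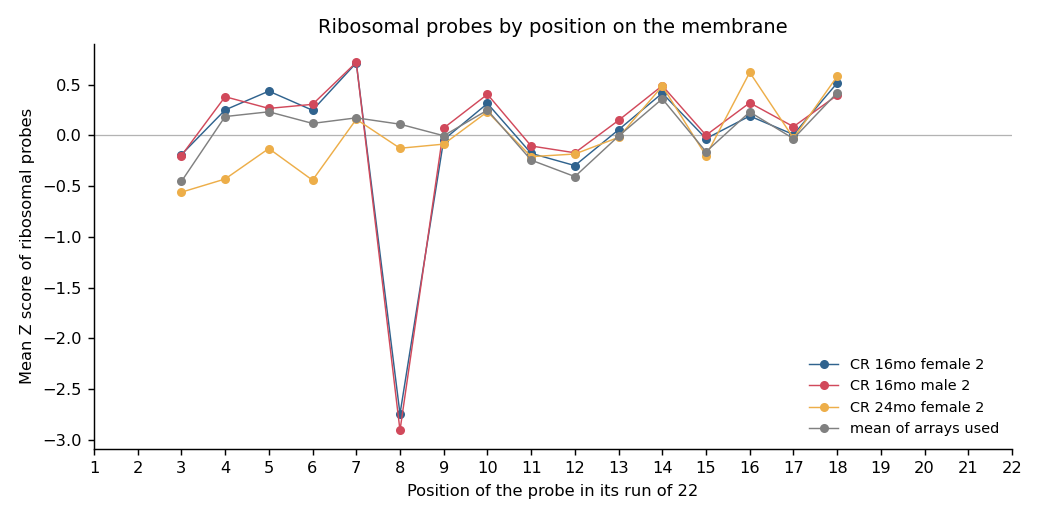
Mean Z score of the ribosomal probes (vertical axis) at each position of the runs of 22 (horizontal axis, positions without such a probe left blank) on each of the 3 arrays left out and averaged over the arrays used. At position 8 the left-out 16-month CR male and female drop to -2.91 and -2.74 while the mean of the arrays used stays near 0.

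Genes that serve the ribosome from outside were taken from lists written with earlier results of these data known. Of 103 listed assembly factors 36 were measured, of 14 rRNA transcription genes 6, and of 50 genes around mTORC1 and S6 kinase 15, and 0 of these were called in any comparison. At 33 to 44 against 17 to 21 days 22 of the 36 assembly factors were higher, with a median of 0.037, and 6 of the 36 were at an unadjusted p under 0.05, a share close to the 13.4% of all features. Among them were Bop1, needed for large subunit rRNA maturation (0.476, SE 0.21), the small subunit processome genes Mphosph10 (0.248, SE 0.0927) and Imp3 (0.236, SE 0.112), and Rpf2, which loads the 5S particle (-0.181, SE 0.0711). Fau, whose product is cut to yield a small subunit protein, differed by 0.120 (SE 0.137, adjusted p = 0.688, limma). In the same comparison the Purkinje markers differed by 0.307 (Car8, SE 0.121, adjusted p = 0.27) and -0.171 (Calb1, SE 0.0819, adjusted p = 0.357). Of 4 proliferation genes measured, 2 were higher and 2 lower, with a median of -0.004, the cyclin gene Ccnd2 having the smallest p (0.164, SE 0.0641, adjusted p = 0.269). Whether the makeup of the tissue had a part in the members' values was not tested, and in such bulk samples fewer cells of a type and less RNA per cell cannot be told apart.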

How the data were processed

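Cerebellar RNA of each mouse was hybridized by the authors to its own nylon cDNA filter, and the deposited values are Z scores per array, read from phosphor images. The sources used here do not say whether logarithms were taken first. Signal over background was not analysed here. The number of arrays limits the precision. No pair of arrays was identical (highest correlation 0.988).

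Genes were named from the platform annotation, in which 4875 probes had 1 symbol, 224 several and 3349 none, and 22 probes with several symbols including an Rpl or Rps symbol were not used. Probes of a gene were averaged. A model with 1 mean per group of sex, age and diet was fitted in R 4.3.3 with the package limma 3.58.1 (moderated tests after lmFit) to the 63 arrays with a median correlation of at least 0.9, with 47 residual degrees of freedom. The sexes were weighted equally, 15 comparisons were made two-sided, and p-values were adjusted by Benjamini-Hochberg over all 7782 features. The script was tested on simulated data.

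The members and lists were chosen with earlier results of these data known. Named genes were the called members, or the 3 with the smallest p in a comparison, the 3 highest and lowest in level per subunit, the 3 most and least variable, and the 3 with probes farthest apart. Rpl22l1, Rps4x, Rpl23a, Bop1 and the other list genes given with values were chosen after their values were seen. The study's thresholds (a Z-ratio of 1.5 or more, a mean Z score above 0 and an unadjusted p under 0.05, here limma's), without the analysis of variance that followed them, served as an alternative, as did other normalizations, filters, array sets as a block and leaving out each array.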

Additional observations from a re-analysis of the deposited data

Results flagged for a closer look

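For each group of 4 or 5 mice the gap between an extreme array and its neighbour was set against the range of the group. Of 121 such tests, on the subunit means and on 9 genes given per mouse, 7 passed, and chance alone passes about 1 in 20. The large subunit mean was 0.020 in the second CR male of 6 months, against 0.106 to 0.123 in the other CR males of that age. It was 0.147 in the fourth AL male of 6 months, against 0.031 to 0.060 in the others. The small subunit mean was 0.186 in the fifth CR male of 16 months, against 0.013 to 0.031. Rpl41 was -0.035 in the fifth CR female of 16 months, against -0.255 to -0.24. Rpl10 was 0.445 in the fourth AL male of 24 months, against 0.385 to 0.395. Rpl23a was 0.21 in the first CR female of 16 months, against 0.365 to 0.38 in the others, and 0.185 in the first AL male of 24 months, against 0.365 to 0.39.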

How the results depend on the processing

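Under 10 other fits, each of the 15 comparisons kept 0 called members. The medians of both subunits moved by less than the SD of the subunit mean between arrays of a group. Most of these medians are smaller than that SD, so a median could vanish or change sign within it, as some given below did. Under the study's thresholds 1 member passed, Rpl7l1 in females of 24 months, CR against AL. Without a single array the count of called members ran from 0 to 3 at 33 to 44 against 17 to 21 days and from 0 to 3 at 6 months against 17 to 21 days, 3 only without the 17-day male, and was 0 in the others. Rpl36 at 16 against 6 months in CR mice reversed with all 66 arrays (-0.306), which bring in the low position-8 values, and no other named difference reversed under any fit run. With array sets as a block, members at an unadjusted p under 0.05 numbered 9 instead of 4 at 6 months against 17 to 21 days (10.9% of features) and 5 instead of 1 at 24 against 16 months in AL mice (7.57%). With array weights they numbered 6 instead of 0 at 24 against 6 months in AL mice (16.9%) and 4 instead of 1 for females against males (4.48%). The filter on a mean Z score above 0 kept 26 of the 54 members. Members at an unadjusted p under 0.05 then numbered 1 instead of 7 at 33 to 44 days (16% of features kept). At 6 months against 17 to 21 days they numbered 0 instead of 4 (13.6%). Rpl35a, Rpl36, Rpl41, Rpl11 and Rps9 have mean Z scores below 0 and were not in that fit. With probes not averaged, 15 members had at least 1 probe at an unadjusted p under 0.05 at 33 to 44 days (13.2% of all probes). For females against males 6 members did (1.33%). A gene with several probes has more chances to pass, so these gene counts and probe shares are not alike. The labels give no replicate numbers that mice of different groups share, so the array set was the only block fitted. Medians near 0 changed sign with the setting: for the small subunit at 24 against 16 months in AL mice they ran from -0.0542 (mean Z score above 0) to 0.0006 (quantile normalization), and for the large subunit at 16 against 6 months in CR mice from -0.0071 (array weights) to 0.043 (all 66 arrays). At 24 against 16 months in CR mice both stayed below 0 in every fit (-0.042 to -0.0063 and -0.057 to -0.0297).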
